A study of Homo sapiens with 6 samples.

Results

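Transcripts of 10 human genes of the ERK feedback circuit, 9 of them inhibitors of the cascade or its kinases, were followed in SH-SY5Y cells exposed to the insecticide endosulfan. They were the dual-specificity phosphatases DUSP1, DUSP4, DUSP5 and DUSP6, the Sprouty proteins SPRY1, SPRY2 and SPRY4, the Sprouty-related proteins SPRED1 and SPRED2, together with the early response protein IER3, which is induced by ERK but prolongs its activity. Every probe set whose annotation names exactly 1 gene, that gene being among the 10, was taken, which gave 26 of the 49293 probe sets tested. All 10 genes were represented, by 1 to 5 probe sets each. A pair of SPRY1 probe sets, 11717652_s_at and 11738073_s_at, held identical values on all 6 arrays and were counted as 1, leaving 25 distinct probe sets. SH-SY5Y is an established human neuroblastoma line of sympathetic lineage, kept in serum-supplemented MEM mixed with F12, per the labels. The 3 endosulfan arrays came from cells given 3 µM endosulfan for 24 h, a dose the labels place below the LC50, and the 3 control arrays from cells labelled control. For the control cells the labels state no vehicle. The labels call the arrays biological replicates of 1 cell line and name no separate culture, passage or day, so the p-values below measure the spread between these arrays, which may be partly technical.

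The RAS, RAF, MEK and ERK cascade carries growth factor signals to the nucleus, and ERK then induces genes that switch it off again. DUSP phosphatases remove phosphate from the activated MAP kinases: DUSP6 acts on ERK in the cytoplasm, DUSP5 on ERK in the nucleus, and DUSP1 and DUSP4 act on several nuclear MAP kinases. Sprouty proteins interfere between receptor and RAF, and SPRED proteins recruit neurofibromin, which inactivates RAS. In neuroblastoma the cascade lies downstream of receptors such as ALK, RET and the TRK family.

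No probe set of the 10 genes passed the test for a difference between endosulfan and control. The group means of all DUSP6 and SPRY1 probe sets, of the 1 SPRY2 probe set and of the brightest SPRED2 probe set were below control, and those of all DUSP1 probe sets and of DUSP5 and IER3 were above it. Single arrays of the groups overlapped for DUSP6, SPRY2, DUSP5 and IER3, and for every DUSP1 probe set but the brightest. In bulk RNA fewer cells carrying a transcript and less of it per cell cannot be told apart. The largest difference was 2.33-fold, for 1 of the 3 SPRED2 probe sets. With limma and Benjamini-Hochberg adjustment over all 49293 probe sets, 0 of the 25 distinct probe sets had an adjusted p below 0.05, and their adjusted p ran from 0.215 to 0.944. Over the whole array 0.00811% of probe sets passed, namely 4, all higher and all belonging to EGR1 or FOS. At an unadjusted p below 0.05 there were 9 of the 25, which is 36%, against 15.5% of all probe sets. Of these 9, 3 were higher, or 12% against 6.3% of all, and 6 were lower, or 24% against 9.21% of all. Those 9 include 3 probe sets of DUSP6 and 2 of DUSP1, which share a target gene. The groups did not overlap for 5 of the 25 probe sets, or 20%, against 20.7% of all probe sets, a share near the background. Of these 5, 1 was higher and 4 were lower, where 11.5% and 9.24% of all probe sets were. The median log2 fold change was -0.07 over the 25 and 0.05 over all probe sets.

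The arrays themselves differed in ways the labels do not record. Over probe sets, which do not count as replicates, Pearson's r was at least 0.964 for any pair of arrays. Control arrays correlated among themselves at 0.987 to 0.995 and exposed ones at 0.985 to 0.993. Of the variance, 63.9% lay on the first principal component, which had control 1 at one end, at -71.6, and endosulfan 1 at the other, at 61.8, with control 2 and endosulfan 2 close together at -2.33 and -1.81. The bacterial poly-A transcripts spiked into the RNA before labelling ran from 5.84 to 7.73 in control and from 7.73 to 8.80 in endosulfan arrays (log2). Of the control arrays only control 2 reached the endosulfan level. A fit with the poly-A level in the model thus separates it poorly from exposure, and the values from it below are imprecise. The 11 measured markers of adrenergic neuroblasts, the cell type of the line, had a mean level of 11.12 to 11.27 in control and 10.90 to 10.97 in endosulfan arrays. Of these 11, 5 were on the higher and 6 on the lower side, with a median log2 fold change of -0.013, and the lower mean came mainly from ISL1 at -1.33 and STMN2 at -1.05. The mean levels of the lists for fibroblast, epithelial, haematopoietic, endothelial and Schwann or glial cells lay between 3.96 and 5.67 on every array. Single genes differed widely. PTPRC, the pan-leukocyte marker, was at 2.67 to 2.96, while THY1 was at 8.12 to 8.71, PDGFRB at 7.34 to 7.92, KRT19 at 6.37 to 7.44 and SOX10 at 6.48 to 6.82. The part of these array differences in the results below was not tested beyond the fits named beside them.

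**Figure D1:**
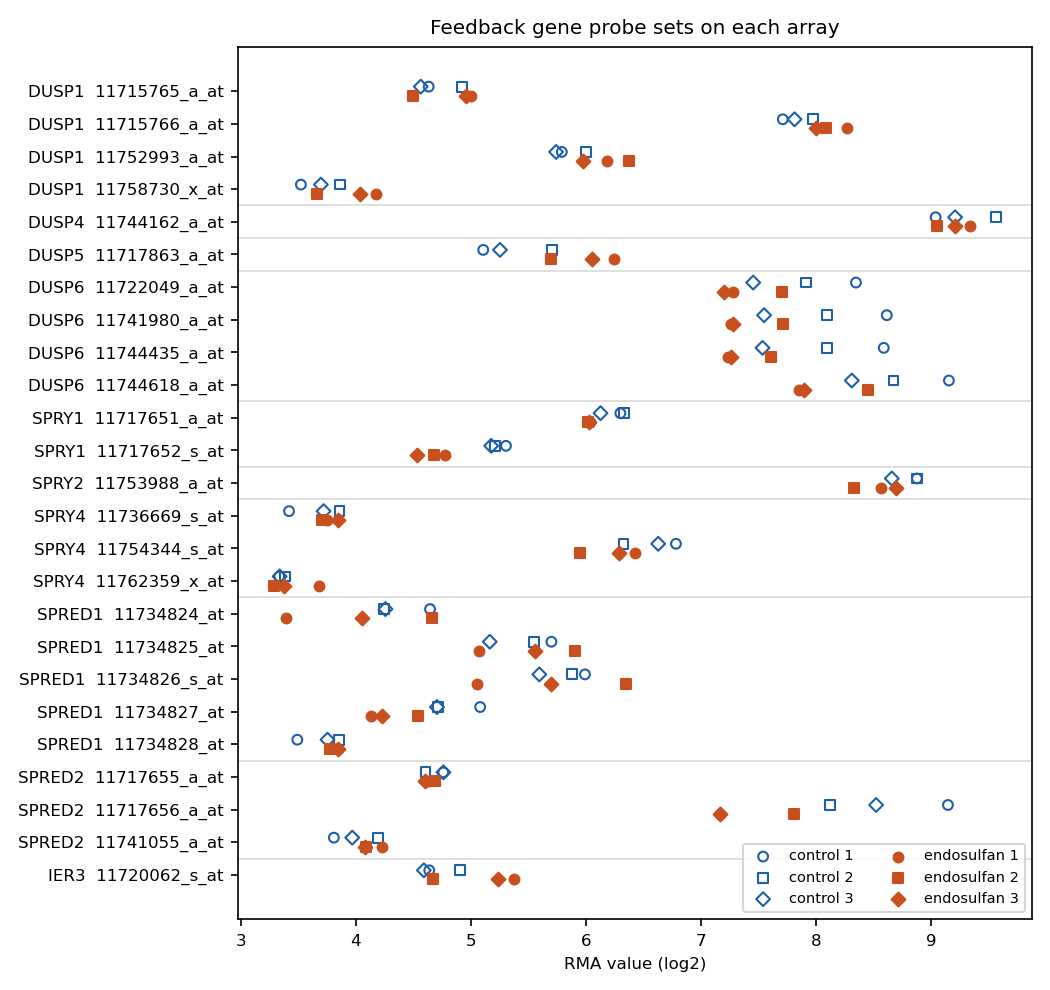
RMA value (log2, horizontal axis) of the 25 distinct probe sets of the 10 genes on each of the 6 arrays, with control arrays as open blue and endosulfan arrays as filled orange symbols, 1 symbol shape per replicate number. The SPRED2 probe set 11717656_a_at and both distinct SPRY1 probe sets have all endosulfan arrays left of all control arrays, whereas the DUSP4 and most SPRED1 probe sets intermix.

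Promoter stretches were read from RefSeq (GRCh38.p14), because immediate early control of such genes runs through elements near the start of transcription. Windows of 250 bases before an annotated start were searched on both strands for the CRE motif TGACGTCA, the AP-1 motif TGANTCA, the ETS core CCGGAAGT, the EGR motif GCGNGGGCG and the CArG box of serum response factor. Among the 10 genes, 7 had windows that were searched, 11 windows in all. No window of DUSP4, DUSP5 or IER3 was searched. DUSP1 held a CRE, beginning 125 bases before its start, a motif in 1.65% of all 35116 windows. SPRY1, SPRY2 and SPRY4 each had 1 window with the EGR motif, which is in 8.41% of all windows. No window of DUSP6, SPRED1 or SPRED2 held any of the 5 motifs, and the AP-1, ETS and CArG motifs, in 6.57%, 3.42% and 1.16% of all windows, were in none of the 11. No motifs overlapped in these windows. DUSP1, SPRY2 and SPRY4, which hold a motif, and SPRED2, with the largest difference in level, are shown 5′ to 3′, with motif letters in capitals.
DUSP1, chr5:172771196-172771445, minus strand: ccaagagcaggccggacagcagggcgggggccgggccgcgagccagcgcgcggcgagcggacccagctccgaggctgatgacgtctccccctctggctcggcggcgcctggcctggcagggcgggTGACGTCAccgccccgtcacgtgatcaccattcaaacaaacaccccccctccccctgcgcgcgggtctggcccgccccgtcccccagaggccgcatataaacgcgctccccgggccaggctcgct
SPRY2, chr13:80341127-80341376, minus strand: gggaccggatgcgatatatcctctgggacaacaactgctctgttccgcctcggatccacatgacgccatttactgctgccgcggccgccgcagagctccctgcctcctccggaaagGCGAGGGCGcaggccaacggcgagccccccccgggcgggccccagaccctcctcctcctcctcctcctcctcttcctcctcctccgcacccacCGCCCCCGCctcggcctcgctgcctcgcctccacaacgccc
SPRY4, chr5:142324248-142324497, minus strand: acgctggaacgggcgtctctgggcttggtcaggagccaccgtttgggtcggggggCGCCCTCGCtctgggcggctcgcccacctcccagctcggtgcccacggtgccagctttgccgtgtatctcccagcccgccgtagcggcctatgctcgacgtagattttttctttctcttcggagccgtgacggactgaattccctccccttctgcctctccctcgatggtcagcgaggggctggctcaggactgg
SPRED2, chr2:65432600-65432849, minus strand: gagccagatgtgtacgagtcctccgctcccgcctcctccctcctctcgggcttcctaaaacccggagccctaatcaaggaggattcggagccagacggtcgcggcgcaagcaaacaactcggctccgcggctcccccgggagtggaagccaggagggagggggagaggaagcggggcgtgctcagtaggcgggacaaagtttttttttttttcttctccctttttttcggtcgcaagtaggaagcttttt
The capitals in DUSP1 are the CRE and those in SPRY2 and SPRY4 are EGR motifs, on either strand. GC content was 74.4% in the DUSP1, 70.4% in the SPRY2, 65.6% in the SPRY4 and 58.8% in the SPRED2 stretch, against a median of 58% over all windows, and a GC-rich motif such as that of EGR is met more readily in GC-rich sequence. A match of letters is a description and says nothing of binding in these cells.

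Among the phosphatases, DUSP6, which acts on ERK in the cytoplasm, had a lower mean in endosulfan arrays on each of its 4 probe sets. The brightest, 11744618_a_at, was at 9.15, 8.67 and 8.31 in control 1, 2 and 3 and at 7.85, 8.45 and 7.89 in endosulfan 1, 2 and 3 (log2). Endosulfan 2 lay above control 3, so the groups overlapped. The difference was a log2 fold change of -0.65 ± 0.24 (SE, n = 3 each; 95% interval -1.20 to -0.09), and limma gave a Benjamini-Hochberg adjusted p equal to 0.278. The 4 probe sets agreed in size, with log2 fold changes from -0.71 to -0.51, and the groups overlapped on each. Being probes for 1 gene read on the same arrays, they are not separate evidence. On the brightest probe set control 1 and control 3 lay farther apart than the difference between the group means. Without control 1 the log2 fold change of the brightest probe set was -0.43, and without control 1 and endosulfan 1 it was -0.32.

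DUSP5, the nuclear ERK phosphatase, stood on the opposite side. Its 1 probe set was at 5.11, 5.71 and 5.25 in control and at 6.24, 5.69 and 6.06 in endosulfan arrays 1 to 3. Endosulfan 1 and 3 were above every control array, while endosulfan 2 was level with control 2. The group means of 5.36 ± 0.31 and 6.00 ± 0.28 (SD, n = 3 each) differed 1.56-fold, a log2 fold change of 0.64 ± 0.20 (SE; 95% interval 0.19 to 1.09) and limma gave a Benjamini-Hochberg adjusted p equal to 0.232. Only 0.578% of all probe sets had a higher log2 fold change. With the poly-A level entered in the model it was 0.26, and 0.26 also when the fit held only the 3 arrays of like spike-in level, where control 2 is the single control array against endosulfan 1 and 2. Without control 1 and endosulfan 1 it was 0.39.

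DUSP1, an early response phosphatase of p38, JNK and ERK, had 4 probe sets, all with higher means in endosulfan arrays. The brightest, 11715766_a_at, was at 7.71, 7.97 and 7.81 in control and at 8.27, 8.08 and 8.0 in endosulfan arrays. The groups did not overlap, though endosulfan 3 exceeded control 2 by little. Its log2 fold change was 0.28 ± 0.12 (SE, n = 3 each; 95% interval 0.0050 to 0.56), and limma gave a Benjamini-Hochberg adjusted p equal to 0.316. The next in brightness, 11752993_a_at, was at 0.33 ± 0.14 (SE) with overlapping groups. The dimmer pair, 11715765_a_at and 11758730_x_at, were at 0.11 and 0.27, ran from 0.019 to 0.27 and from 0.16 to 0.41 with 1 array left out, and the suffix of the latter marks probes that may bind other transcripts.

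DUSP4, the nuclear phosphatase of ERK and JNK, was the brightest member, with a mean level above 93.2% of all probe sets. It was at 9.04, 9.56 and 9.21 in control and at 9.33, 9.05 and 9.20 in endosulfan arrays. The groups lay across each other, with a log2 fold change of -0.07 ± 0.15 (SE, n = 3 each) and limma gave a Benjamini-Hochberg adjusted p equal to 0.842. The 95% interval, -0.43 to 0.28, leaves room for differences in both directions, so it does not show that DUSP4 was unaffected. The 4 phosphatases thus covered both signs: DUSP5 and DUSP1 above, DUSP4 near and DUSP6 below the control level.

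**Figure D2:**
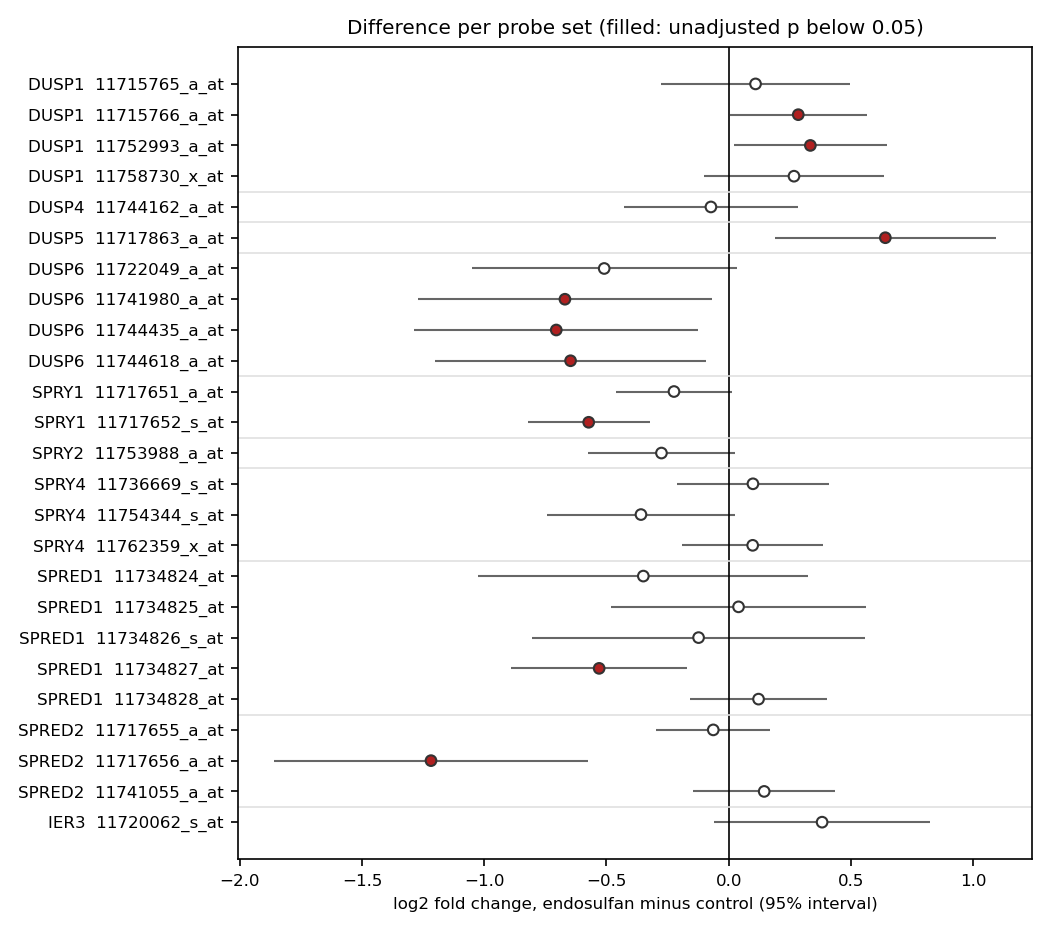
Log2 fold change (endosulfan minus control, horizontal axis) of the 25 distinct probe sets with its 95% interval from limma, filled where the unadjusted p is below 0.05. The 4 DUSP6 probe sets lie between -0.71 and -0.51, DUSP5 at 0.64 and the brightest SPRED2 probe set at -1.22, while no probe set passes after adjustment over the table.

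SPRY1, an inhibitor of receptor tyrosine kinase signalling that is best known from GDNF and RET signalling in the kidney, had the smallest unadjusted p of all members. Its probe set 11717652_s_at was at 5.31, 5.21 and 5.18 in control and at 4.77, 4.68 and 4.53 in endosulfan arrays. All endosulfan arrays were below all control arrays, and the gap between the groups was wider than the spread within either. The means of 5.23 ± 0.07 and 4.66 ± 0.12 (SD, n = 3 each) gave a log2 fold change of -0.57 ± 0.11 (SE; 95% interval -0.82 to -0.32), and limma gave a Benjamini-Hochberg adjusted p equal to 0.215 and an unadjusted p of 0.000774. The brighter SPRY1 probe set, 11717651_a_at, was at 6.30, 6.33 and 6.13 in control and at 6.04, 6.02 and 6.03 in endosulfan arrays. There the groups also did not overlap, and the log2 fold change was -0.22 ± 0.10 (SE). Of the 2 distinct SPRY1 probe sets, the first kept a log2 fold change between -0.64 and -0.49 in all 16 other fits.

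SPRY2, which binds the ubiquitin ligase CBL, was at 8.88, 8.88 and 8.66 in control and at 8.56, 8.33 and 8.70 in endosulfan arrays. Endosulfan 3 lay above control 3, and the log2 fold change was -0.28 ± 0.13 (SE, n = 3 each; 95% interval -0.58 to 0.03), and limma gave a Benjamini-Hochberg adjusted p equal to 0.354. The SPRY2 value was -0.17 without endosulfan 2, -0.080 with array weights and -0.47 after adjusting for the poly-A level. SPRY4, widely used as a readout of ERK output, had 3 probe sets of very different brightness. The brightest, 11754344_s_at, was at 6.78, 6.33 and 6.63 in control and at 6.42, 5.95 and 6.28 in endosulfan arrays. Endosulfan 1 exceeded control 2, and the log2 fold change was -0.36 ± 0.17 (SE, n = 3 each; 95% interval -0.74 to 0.02). That SPRY4 value was -0.22 without endosulfan 2 and -0.17 after adjusting for the poly-A level. The other SPRY4 probe sets, 11736669_s_at and 11762359_x_at, had means below 3.9 on both groups of arrays, where the array medians lie between 4.89 and 4.94, and log2 fold changes of 0.10 each.

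SPRED2 gave the largest difference, on 1 probe set. The protein bears an EVH1 domain and a Sprouty domain and restrains RAS through neurofibromin. Probe set 11717656_a_at was at 9.15, 8.12 and 8.52 in control and at 7.16, 7.80 and 7.17 in endosulfan arrays. The groups did not overlap, with control 2 and endosulfan 2 nearest to each other. Their means of 8.60 ± 0.52 and 7.38 ± 0.37 (SD, n = 3 each) gave a log2 fold change of -1.22 ± 0.28 (SE; 95% interval -1.86 to -0.58), and limma gave a Benjamini-Hochberg adjusted p equal to 0.215. Only 0.367% of all probe sets had a lower log2 fold change. Adjusting for the poly-A level gave -0.67, and it was -0.64 against control 2 as the single control in the 3 arrays of like spike-in level. The other SPRED2 probe sets, 11717655_a_at and 11741055_a_at, were dim, with group means between 3.99 and 4.71, and had log2 fold changes of -0.06 and 0.15, so the difference rests on the 1 bright probe set.

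SPRED1, whose loss of function in the germline causes Legius syndrome, gave mixed values on its 5 probe sets. The log2 fold changes ran from -0.53 to 0.12, 3 below and 2 above zero. Probe set 11734827_at was at 5.08, 4.71 and 4.71 in control and at 4.13, 4.55 and 4.23 in endosulfan arrays. Its groups did not overlap, and its log2 fold change was -0.53 ± 0.16 (SE, n = 3 each), and limma gave a Benjamini-Hochberg adjusted p equal to 0.228. The brightest, 11734826_s_at, was at 5.99, 5.88 and 5.60 in control and at 5.05, 6.35 and 5.70 in endosulfan arrays. Endosulfan 1 was the lowest and endosulfan 2 the highest of its 6 arrays, so the 2 most distant values were both from exposed cells. Its log2 fold change was -0.12 ± 0.29 (SE), and without endosulfan 1 it was 0.20. Probe set 11734824_at was at 4.65, 4.25 and 4.26 in control and at 3.39, 4.66 and 4.05 in endosulfan arrays, again with endosulfan 1 lowest and endosulfan 2 highest. Its log2 fold change of -0.35 ± 0.29 (SE, n = 3 each) was -0.029 without endosulfan 1 and -0.66 without endosulfan 2. The remaining SPRED1 probe sets, 11734825_at and 11734828_at, had log2 fold changes of 0.040 and 0.12 with overlapping groups.

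IER3, an early response protein that prolongs ERK activity by acting on a phosphatase of ERK and also promotes survival, was at 4.64, 4.90 and 4.59 in control and at 5.37, 4.67 and 5.23 in endosulfan arrays. Endosulfan 2 lay among the control arrays and the other exposed arrays above them. The log2 fold change was 0.38 ± 0.19 (SE, n = 3 each; 95% interval -0.06 to 0.82), and limma gave a Benjamini-Hochberg adjusted p equal to 0.372. The IER3 value was 0.24 without endosulfan 1, 0.59 without endosulfan 2 and 0.093 after adjusting for the poly-A level. IER3 and DUSP5 shared this arrangement, with endosulfan 2 at the level of control 2 or below it.

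Position along the first principal component ran alongside several of these values. In the brightest SPRED2 and DUSP6 probe sets and in SPRED1 11734827_at, control 1 was the highest array and endosulfan 1 the lowest, the 2 arrays at the ends of that component. In DUSP5 and IER3 endosulfan 1 was the highest array, while the lowest was control 1 in DUSP5 and control 3 in IER3. SPRY1 probe set 11717652_s_at followed in part, with control 1 as its highest array but endosulfan 3 as its lowest. Without control 1 and endosulfan 1, a fit chosen after the data were seen, 2 of the 25 probe sets had an unadjusted p below 0.05 in place of 9. That fit kept 2 arrays per group, and fewer arrays can by themselves lower such a count. The part of each was not tested. In that fit the log2 fold changes were -0.83 for SPRED2, -0.59 for SPRY1 and 0.39 for DUSP5.

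**Figure D3:**
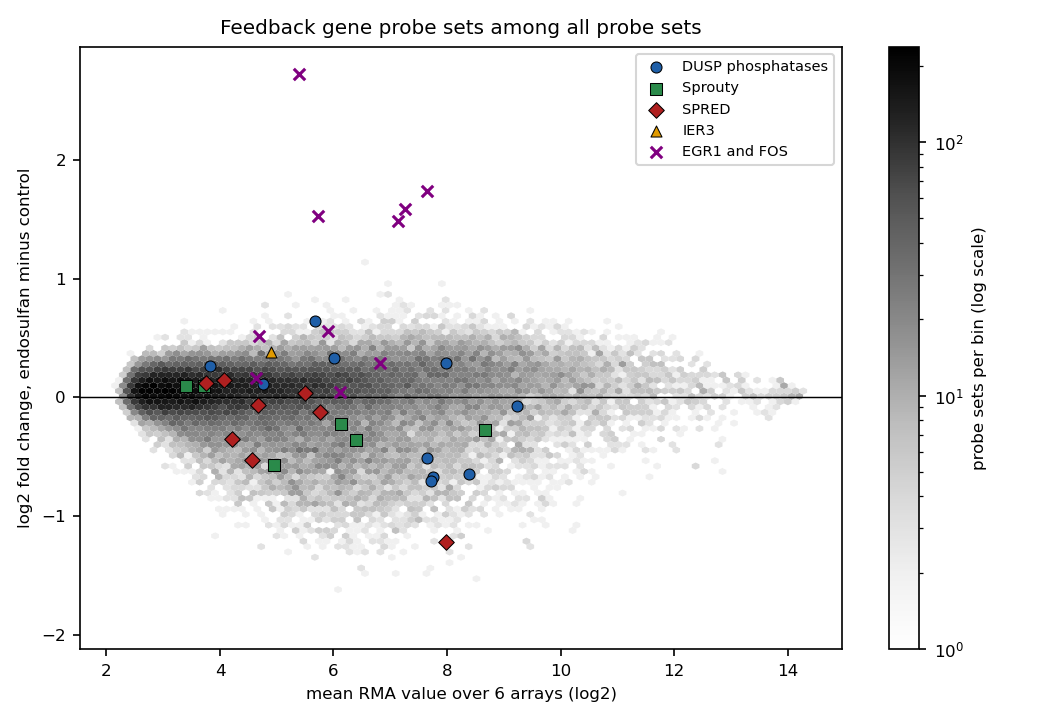
Log2 fold change (endosulfan minus control) against mean RMA value over the 6 arrays (log2) for all 49293 probe sets, shaded by number per bin on a log scale, with the 25 distinct probe sets of the 10 genes and those of EGR1 and FOS marked. The feedback genes lie within the main cloud, with SPRED2 at -1.22 near its lower edge, whereas several EGR1 and FOS probe sets lie above the cloud.

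The members were set beside other genes of the pathway, with the brightest one-gene probe set for each of 18132 genes. At this level 3 of the 10 members were on the higher and 7 on the lower side, with a median log2 fold change of -0.17 against 0.05 over all genes. At an unadjusted p below 0.05, 1 member was higher and 2 were lower, where 6.64% of all genes were higher and 10.5% lower, 17.1% in all. With limma and Benjamini-Hochberg adjustment 0.00552% of all genes passed, namely EGR1 alone. No other gene of the lists below passed at this level, and the values given for them are descriptions. The outcome depends on the probe set taken. FOS, of the immediate early list, was represented by its brightest probe set, with a log2 fold change of 0.29. A dimmer FOS probe set was at 2.72, and limma gave it a Benjamini-Hochberg adjusted p equal to 0.00913 over all probe sets. The FOS probe sets ran from 0.29 to 2.72 and those of EGR1 from 0.045 to 1.74.

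The other MAP kinase phosphatases were also divided. Of 6 measured, 3 were on the higher and 3 on the lower side, with a median of 0.06. At an unadjusted p below 0.05 there was 1 in each direction, against 6.64% of all genes higher and 10.5% lower. DUSP9, an ERK phosphatase of the cytoplasm, was at 7.02, 8.08 and 7.21 in control and at 8.21, 7.98 and 8.19 in endosulfan arrays. DUSP16, which acts on JNK and p38, was at 7.61, 6.54 and 6.76 in control and at 5.93, 6.46 and 6.34 in endosulfan arrays. DUSP7, close in sequence to DUSP6, had a log2 fold change of 0.18. The atypical dual-specificity phosphatases, 11 measured, had 0 at an unadjusted p below 0.05 in limma in either direction and a median of -0.03, with DUSP3, DUSP18 and DUSP15 at -0.43, -0.34 and 0.23.

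The close relatives of the members lay 5 of 5 on the higher side, where 10907 of all 18132 genes were, with a median of 0.20 and 1 at an unadjusted p below 0.05. That gene was IER5, a growth factor-inducible nuclear protein, with a log2 fold change of 0.50, and IER5L, IER2 and SPRED3 were at 0.34, 0.20 and 0.041. Among other inhibitors of receptor and RAS signalling, 16 of 17 were measured, 7 higher and 9 lower, with a median of -0.05. At an unadjusted p below 0.05, 1 was higher and 4 were lower, against 6.64% and 10.5% of all genes. IL17RD, the membrane inhibitor of FGF signalling also called Sef, was at 8.74, 7.58 and 7.90 in control and at 6.38, 7.23 and 6.69 in endosulfan arrays, a log2 fold change of -1.31 ± 0.32 (SE, n = 3 each). TRIB1, a pseudokinase that binds MEK1, had a log2 fold change of -1.19, and the ubiquitin ligase CBLB one of -0.44. For each of these 3 genes the endosulfan arrays all lay below the control arrays, as for 10.2% of all genes, with 12.4% on the other side and 22.6% in both.

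The ERK cascade itself, 23 of 29 measured, had a median of -0.04. At an unadjusted p below 0.05, 3 were higher and 5 lower, against 6.64% and 10.5% of all genes. The smallest p belonged to the ribosomal S6 kinase RPS6KA2 at -0.91, the phosphatase PTPN11 (SHP2), which relays receptor signals to RAS, at -0.94 and the exchange factor SOS2 at -0.64. Of 9 further ERK output genes, 0 were higher and 3 lower at an unadjusted p below 0.05, with a median of -0.14: MYC at -0.57, and the ETS factors ETV1 and ETV5 at -0.80 and -0.43. ETV5 was at 9.58, 9.51 and 9.84 in control and at 9.22, 9.16 and 9.25 in endosulfan arrays, lower with no overlap, as were 10.2% of all genes. The immediate early list held 30 symbols, of which 27 were measured. CYR61, counted as not measured, is an older symbol of CCN1, which was measured. The measured genes had a median of 0.12, with 5 higher and 1 lower at an unadjusted p below 0.05. EGR1, the zinc finger factor, rose, with a log2 fold change of 1.74 ± 0.12 (SE, n = 3 each) and limma gave a Benjamini-Hochberg adjusted p equal to 0.0103 over all genes. At gene level it lost that call when any 1 array was left out.

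Growth factor receptors, 18 of 19 measured, had a median of -0.14. At an unadjusted p below 0.05, 1 was higher and 4 were lower, against 6.64% and 10.5% of all genes. RET, the GDNF family receptor, was at 8.53, 8.11 and 8.02 in control and at 7.44, 7.26 and 7.16 in endosulfan arrays, a log2 fold change of -0.94 ± 0.16 (SE, n = 3 each). IGF1R and PDGFRA were at -1.13 and -0.90. Growth factor ligands, 16 of 21 measured, had a median of 0.02, with 2 higher and 1 lower, and FGF2, HBEGF and NRG1 at 0.90, 0.33 and -0.28.

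**Figure D4:**
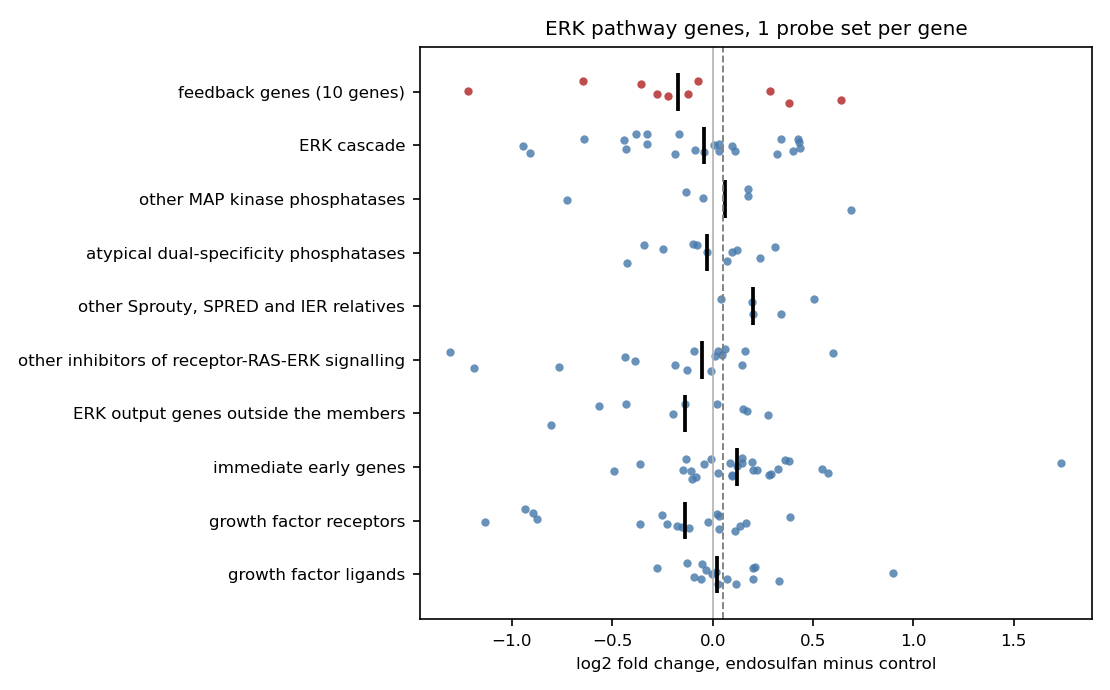
Log2 fold change (endosulfan minus control, horizontal axis) of each gene of the 10 feedback genes and of 9 ERK pathway lists, 1 probe set per gene, with a black bar at each median and a dashed line at the median of all genes, 0.05. Each list straddles zero apart from the Sprouty, SPRED and IER relatives, and EGR1 at 1.74 is the 1 gene past the threshold.

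The genes most like the 2 members with the largest difference were sought by the root mean square difference of log2 values over the 6 arrays, each gene centred on its own mean. For SPRED2 the nearest was TRIB1, at 0.0611, followed by CDC14B, BLTP3A and RARS1 at 0.0668, 0.0737 and 0.079. TRIB1 was at 7.81, 6.83 and 7.16 in control and at 5.94, 6.40 and 5.90 in endosulfan arrays. For DUSP6 the nearest were MSL3, ATF6, SNX9 and RPRD1B, at 0.0675, 0.0844, 0.0909 and 0.0961. Their log2 fold changes resemble those of SPRED2 and DUSP6 because they were chosen for like values on the same arrays.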

How the data were processed

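Total RNA of 6 SH-SY5Y samples was measured on one-colour Affymetrix arrays. The authors deposited log2 values made with Affymetrix Expression Console and RMA, per the submitters' processing notes; they name no version or option. RMA sets the arrays to nearly equal quantiles, so a shift shared by most transcripts is removed. No scanner file was used, so no call above background was made and no probe set was left out as dim. For arrays, their number limits the precision.

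Of 49395 rows, 102 array control probe sets were set aside. By the platform annotation 44988 probe sets named 1 gene, 1832 several and 2473 none. Endosulfan was compared with control in R 4.3.3 with limma 3.58.1, a linear model per probe set with eBayes moderation, two-sided, with Benjamini-Hochberg adjustment over all probe sets or all genes and a threshold of 0.05. Figures used matplotlib 3.10.9 in Python 3.11.15. The poly-A level was the mean of the dap, lys, phe and thr control probe sets.

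Members, lists and alternatives were chosen with earlier results of these data known. All probe sets of the members are described, and each list names genes past the threshold and otherwise up to 3 of smallest p. The fit was repeated with a replicate block, further quantile normalization, median centring, a filter on dim probe sets, trend with robust moderation, array weights, no moderation, the spike-in covariate, averaging over the probe sets of each gene, each array left out and subsets of arrays. Tested on simulated data for this comparison over 49293 probe sets, the fit recovered 8%, 66%, 96% and 100% of changes set at 0.585, 1, 2 and 3 on the log2 scale, and 6 of 141 calls were false. The simulated noise was drawn separately for each probe set. It held no difference shared across an array, as the real arrays do, so these rates may not hold for them.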

Additional observations from a re-analysis of the deposited data

Results flagged for a closer look

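Of the measures made from array control probe sets, left out of the gene comparison, 2 were higher on every endosulfan array than on every control array. The hybridisation controls, added after labelling, had means of 9.87 ± 0.30 (control) and 10.52 ± 0.19 (endosulfan) on the log2 scale, with SD over n = 3 each, a difference of 0.655 with an exact permutation p of 0.1 (two-sided, the smallest that 3 against 3 can give). The 3' minus 5' difference of GAPDH, a sign of RNA integrity, was 0.75 ± 0.06 and 0.84 ± 0.04 (SD, n = 3 each), a difference of 0.0926 with an exact permutation p of 0.1 (two-sided). The GAPDH groups nearly met, at 0.807 in control 1 and 0.818 in endosulfan 2. The 3' minus 5' difference of beta-actin overlapped between the groups, at 3.59 ± 0.07 and 3.67 ± 0.10 (SD, n = 3 each), with an exact permutation p of 0.3 (two-sided). The poly-A level overlapped too, with an exact permutation p of 0.2 (two-sided). The part of the hybridisation controls and 3' minus 5' differences in the values of the feedback genes was not tested. With the poly-A level entered in the model, SPRED2 11717656_a_at was at -0.67 in place of -1.22 and DUSP6 11744618_a_at at -0.56 in place of -0.65. As that level was mostly higher in endosulfan arrays, the fit cannot tell its part from that of exposure.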

How the results depend on the processing

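The count of feedback gene probe sets past the threshold, 0 in the report, was 0 in every other fit except that with array weights, where it was 5: DUSP5, IER3, SPRY1, 1 SPRED1 and 1 SPRED2 probe set. Those weights rested on endosulfan 3, at 5.43, and control 3, at 2.20, and the weighting also called 7101 probe sets, 5915 genes and 54 of the pathway genes; the cause was not tested. The report's counts of 4 probe sets, 1 gene and 1 pathway gene were 0, 0 and 0 with the replicate block, without moderation, with the spike-in covariate and in control 2, endosulfan 1 and endosulfan 2 alone, and 1, 0 and 0 with control 1 and endosulfan 1 left out. With 1 array left out they ran from 0 to 7 for probe sets, from 0 to 0 for genes and from 0 to 0 for pathway genes, and with probe sets averaged per gene there were 0 genes and 0 pathway genes. The count of feedback gene probe sets at an unadjusted p below 0.05, 9 in the report, was 9 with the replicate block, 4 without moderation or without control replicate 1, 5 without endosulfan replicate 1, 2 with the spike-in covariate or with control 1 and endosulfan 1 left out and 1 in the 3 arrays alone, whose control arm is 1 array, and at most 11. Deviations from the group means of same-numbered arrays correlated at -0.51, -0.40 and 0.05, and no array correlated best with its own number. Such deviations cancel out within each group, so these correlations depend on one another. They cannot decide whether same-numbered arrays shared a culture or day.

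Of the 25 distinct probe sets, 15 kept their sign in every fit and 10 did not; for the latter the cause was not tested. With the spike-in covariate, DUSP1 11715765_a_at was at -0.20, SPRY4 11736669_s_at at -0.11, SPRED1 11734825_at and 11734828_at at -0.083 and -0.020, and SPRED2 11717655_a_at and 11741055_a_at at 0.062 and -0.011. In the 3 arrays alone the same probe sets were at -0.17, -0.13, -0.059, -0.043, 0.061 and -0.030. With control 1 and endosulfan 1 left out, chosen after seeing the data, DUSP1 11715765_a_at was at -0.018, SPRY4 11736669_s_at and 11762359_x_at at -0.015 and -0.026, and SPRED1 11734824_at and 11734826_s_at at 0.10 and 0.28. With 1 array left out, DUSP4 ran from -0.19 to 0.074 (positive without control 2), SPRY4 11736669_s_at from -0.024 (without control 1) to 0.20 and 11762359_x_at from -0.018 (without endosulfan 1) to 0.18. SPRED1 11734825_at ran from -0.16 (without endosulfan 2; -0.11 without control 3) to 0.26 and 11734826_s_at from -0.45 to 0.20 (without endosulfan 1). At gene level SPRED1 was at 0.039 with array weights.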
